A study of Mus musculus with 4 samples.

Results

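The growth hormone, STAT5 and BCL6 signalling genes of liver were followed in mice lacking BAF60a in that organ. The set holds 10 genes, taken by symbol, which are the growth hormone receptor Ghr, the kinase Jak2, the transcription factors Stat5a and Stat5b, the feedback inhibitors Socs2 and Cish, the secreted products Igf1 and Igfals, and the repressors Bcl6 and Cux2. All 10 were measured among 18193 genes, through 26 of 45037 probe sets, a probe set being a group of short array probes for a single transcript region. Livers of 2 groups of C57BL/6 mice were hybridised, Baf60a liver-specific knockout (Baf60a LKO) and wild type (WT), with 2 arrays per group and an independent pool of RNA on each. Both groups ate a high-fat diet for 10 weeks from 6 weeks of age, and liver was taken after an overnight fast. The sex of the mice, the number of mice in a pool and the driver of the deletion are not given in the sources used here. P-values refer to the spread between pools. The fit draws that spread largely from all genes, with 3.54 prior degrees of freedom beside 2 from the gene's own pools.

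Growth hormone reaches the liver in pulses that are large and well separated in male rodents and more continuous in females. It binds its receptor, activates the kinase JAK2, and JAK2 phosphorylates STAT5, which enters the nucleus and switches on IGF-1 and its own inhibitors. BCL6, a zinc finger repressor, binds DNA sites that overlap those of STAT5, and CUX2 is a repressor made mainly in female liver. High-fat feeding, fasting and sex all bear on this pathway.

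STAT5 recognises the letters TTCNNNGAA, which read the same on both strands, and this motif marks where the pathway could act on its own members. It was looked for in windows of 300 bases, 250 before and 50 after each start site, from the RefSeq promoter table of GRCm38.p6. The table held 16 windows for 9 of the 10 genes, and 5 of the windows, belonging to Cish, Bcl6 and Igfals, held a match, while 8.3% of all 32851 windows in the table held one. Socs2 had no window and so was not searched. Cish and Bcl6 are shown because their windows hold more than 1 match, and Igfals because it is a STAT5 target on the secreted side of the pathway. Matches are in capitals and are a description of letters, not of binding. The windows lie at chr9:107296409-107296708 on the plus strand (Cish), chr16:23981234-23981533 on the minus strand (Bcl6) and chr17:24877981-24878280 on the plus strand (Igfals).
Cish: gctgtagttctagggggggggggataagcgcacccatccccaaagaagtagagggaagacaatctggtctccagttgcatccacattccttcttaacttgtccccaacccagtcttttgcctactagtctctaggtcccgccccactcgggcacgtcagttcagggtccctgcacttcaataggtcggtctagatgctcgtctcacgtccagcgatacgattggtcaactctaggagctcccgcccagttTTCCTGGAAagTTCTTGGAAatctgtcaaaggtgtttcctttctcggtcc
Bcl6: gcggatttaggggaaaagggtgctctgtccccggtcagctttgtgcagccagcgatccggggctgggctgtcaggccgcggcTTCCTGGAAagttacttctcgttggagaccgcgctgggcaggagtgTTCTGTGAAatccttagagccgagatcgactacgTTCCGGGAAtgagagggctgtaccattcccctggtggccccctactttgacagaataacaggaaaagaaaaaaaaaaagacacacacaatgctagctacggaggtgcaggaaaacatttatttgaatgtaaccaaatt
Igfals: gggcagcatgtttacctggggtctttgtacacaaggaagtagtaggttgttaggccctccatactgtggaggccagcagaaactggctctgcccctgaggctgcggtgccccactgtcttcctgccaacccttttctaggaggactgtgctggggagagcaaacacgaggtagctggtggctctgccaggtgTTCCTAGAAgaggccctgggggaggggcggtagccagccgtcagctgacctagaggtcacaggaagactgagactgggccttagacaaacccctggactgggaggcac
The Cish matches begin at bases 1 and 12 counted from the start site, those of Bcl6 at -168, -122 and -88, and that of Igfals at -58. Another Bcl6 window and another Igfals window each held 1 match, not printed here. Windows with 2 or more matches made up 0.457% of the table and those with 3 or more 0.0335%.

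None of the 10 genes passed the test between Baf60a LKO and WT livers (limma, Benjamini-Hochberg adjusted p under 0.05 over all genes), in a comparison in which 88 genes, or 0.484% of all tested, passed. The lowest adjusted p among them was 0.478, that of Stat5a. At an unadjusted p under 0.05, limma marked 1 of the 10, against 10.2% of all genes. All 10 log2 differences lay below 0, between -0.35 and -0.02 with a median of -0.17, where all genes had a median of 0.00 and 49.9% lay below 0. The median size of the difference was 0.17 for the 10 genes and 0.14 for all genes. The count below 0 was 9 of 10 with array medians subtracted or probe sets averaged, 7 of 10 without Baf60a LKO replicate 2 and 7 of 10 without WT replicate 2. In 4 genes (Stat5a, Igf1, Igfals and Cux2) the groups did not overlap, as in 42.4% of all genes, and in Stat5a, Igf1 and Cux2 the difference was larger than the gap between the pools of either group, as in 28.5% of all genes. On the brightest probe set of each gene, the 95% interval lay inside 1.5-fold in both directions for 7 genes, and inside 2-fold for 9. Some other probe sets of those genes had wider intervals, such as Jak2 1421065_at (0.742-fold to 1.71-fold) and Socs2 1446085_at (0.412-fold to 2.06-fold). A missed threshold does not show that the groups were alike. The intervals, set per gene, give the changes that 2 pools per group leave possible for the brightest probe sets only.

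**Figure D1:**
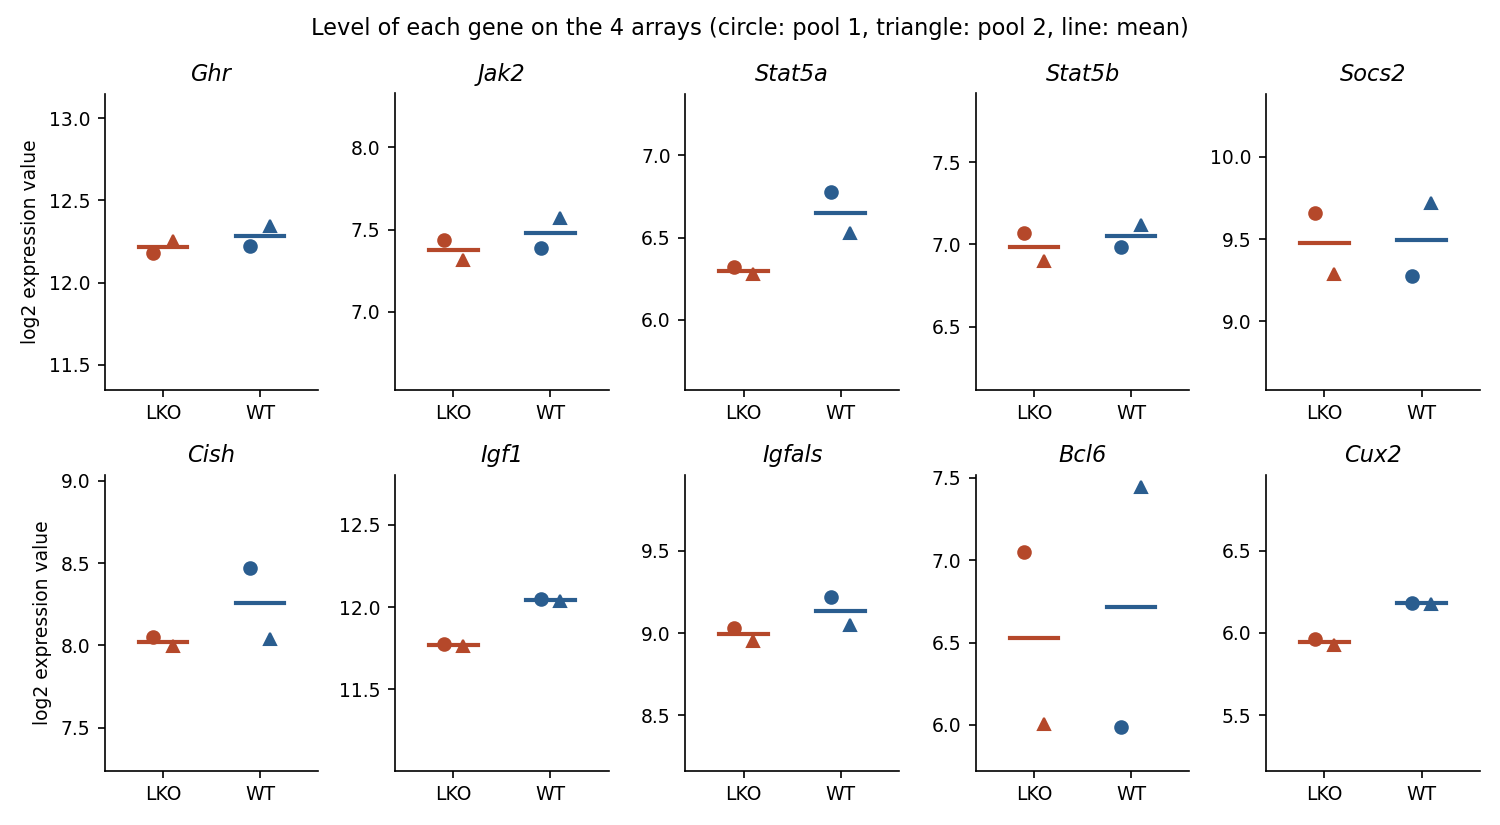
Log2 expression value (vertical axis, the same span in every panel) of each gene's brightest probe set in Baf60a LKO (left) and WT (right), with pool 1 as circles, pool 2 as triangles and the group mean as a line. Stat5a, Igf1, Igfals and Cux2 had groups that did not overlap, and the pools of Bcl6 lay 1.05 apart in Baf60a LKO and 1.46 apart in WT.

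Some facts of the arrays stand beside these values. Smarcd1, which encodes BAF60a, stood at 5.34 and 5.30 in Baf60a LKO and at 5.62 and 5.88 in WT (log2 difference -0.43 ± 0.14 SE, limma adjusted p = 0.410), and since the place of its probes in the deleted part is not known, this does not check the genotype. WT replicate 1 stood somewhat apart, with correlations over probe sets of 0.987 to 0.991 with the other arrays, against 0.993 to 0.996 among those. The hepatocyte genes Alb and Apoa1 lay between 13.89 and 14.17 on all arrays, so the labelled tissue carries its defining markers. Transcripts of the Y chromosome gene Eif2s3y stood at 7.93 and 8.22 in Baf60a LKO and at 7.49 and 8.06 in WT, and Xist, the RNA of the inactive X, at 3.55 and 3.46 in Baf60a LKO and at 3.74 and 3.29 in WT. Kdm5d, also on the Y chromosome, lay between 5.91 and 6.13 on all arrays. Every pool thus held RNA of male mice, with Xist dim, although the labels do not give the sex. A lower value in bulk liver can come from fewer cells of a type or from less RNA per cell, and these cannot be told apart.

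The receptor gene Ghr encodes both the membrane receptor and, by alternative splicing in mice, its soluble binding protein. On its brightest probe set Ghr read 12.18 and 12.25 in Baf60a LKO and 12.22 and 12.34 in WT. The groups overlapped, and the difference of -0.07 ± 0.12 (SE, limma adjusted p = 0.857) had a 95% interval of 0.775-fold to 1.17-fold. A further Ghr probe set, 1451501_a_at, had groups that did not overlap, at 11.91 and 11.98 in Baf60a LKO and at 12.14 and 12.21 in WT (-0.23 ± 0.12, adjusted p = 0.655 by limma over all probe sets). The third Ghr probe set, 1451871_a_at, stood much lower, between 6.63 and 6.78, and differed by -0.01 ± 0.13. On its brightest probe set and on 1451501_a_at the transcript of the receptor was thus bright on every array. The probe sets did not agree on whether the groups separated.

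Jak2 encodes the kinase bound to the receptor's tail. It read 7.44 and 7.31 in Baf60a LKO and 7.39 and 7.57 in WT, a difference of -0.10 ± 0.13 (SE, limma adjusted p = 0.797) with overlapping groups. Its other probe set, 1421065_at, had the opposite sign (0.17 ± 0.24), with Baf60a LKO values of 5.59 and 5.67 between the WT values of 5.10 and 5.81. With both probe sets averaged Jak2 stood at 0.03, so no direction can be given for it.

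Stat5a and Stat5b are adjacent genes on chromosome 11 that encode near-identical factors, of which STAT5B carries most of the growth hormone signal in liver. Stat5a read 6.32 and 6.28 in Baf60a LKO and 6.78 and 6.53 in WT, with means of 6.30 ± 0.03 in Baf60a LKO and 6.65 ± 0.18 in WT (SD, n = 2 each). Both Baf60a LKO pools lay below both WT pools. The difference was -0.35 ± 0.14 (SE), or 0.783-fold with a 95% interval of 0.620-fold to 0.990-fold, an unadjusted p of 0.0434 and an adjusted p of 0.478 by limma. It was the largest difference among the 10 genes, and it was -0.23 without WT replicate 1 and -0.23 with its probe sets averaged. The other Stat5a probe set was dim, between 2.84 and 3.21 on the 4 arrays, and differed by -0.10 ± 0.17. The array medians of 27 control probe sets that read bacterial RNA were 2.27 to 2.33. On each array this Stat5a probe set lay above the 95th percentile of those controls, 2.63 to 2.86. Stat5b read 7.07 and 6.90 in Baf60a LKO and 6.98 and 7.12 in WT. These groups overlapped, and the difference was -0.07 ± 0.13 (SE, limma adjusted p = 0.872), with the sign turned at 0.02 without Baf60a LKO replicate 2 and at 0.000503 without WT replicate 2. The second Stat5b probe set differed by -0.23 ± 0.20, where WT replicate 1, at 5.39, stood above the other 3 arrays, at 4.86 to 4.91. Whether Stat5a differed more than Stat5b was not tested. Because the genes are so alike in sequence, probes of either may also read the other.

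Socs2 and Cish are induced by STAT5 and dampen receptor signalling, Socs2 through degradation of the receptor and Cish by competing for its docking sites. Their transcripts are common readouts of recent growth hormone action. Socs2 read 9.66 and 9.29 in Baf60a LKO and 9.27 and 9.72 in WT. The pools lay 0.37 apart in Baf60a LKO and 0.44 apart in WT, while the group means, 9.47 ± 0.26 in Baf60a LKO and 9.50 ± 0.31 in WT (SD, n = 2 each), differed by -0.02 ± 0.21 (SE, limma adjusted p = 0.980). The interval ran from 0.690-fold to 1.41-fold. The sign of Socs2 turned when array medians were subtracted and when Baf60a LKO replicate 2 or WT replicate 2 was left out.

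Socs2 had 6 probe sets, more than any other member, and they went both ways. The second in level, 1418507_s_at, read 7.86 and 7.71 in Baf60a LKO and 7.16 and 8.08 in WT, a difference of 0.17 ± 0.30 (SE) in which WT held both extremes. Probe set 1446085_at split each group, at 5.08 and 3.96 in Baf60a LKO and at 5.17 and 4.11 in WT, so that replicate 1 lay about a log2 unit above replicate 2 in both groups. The largest difference of the 26 probe sets was that of 1442586_at, at -0.52 ± 0.27 (limma adjusted p = 0.654 over all probe sets), with Baf60a LKO at 4.61 and 4.27 and WT at 5.34 and 4.58. Those last values overlapped between the groups. The remaining probe sets, 1438470_at and 1441476_at, differed by 0.18 ± 0.17 and 0.10 ± 0.13, and 1441476_at lay near background on all arrays.

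Cish was read by 1 probe set. It stood at 8.05 and 7.996 in Baf60a LKO and at 8.47 and 8.04 in WT, so WT replicate 1 alone stood above the other arrays. The means were 8.02 ± 0.04 in Baf60a LKO and 8.26 ± 0.31 in WT (SD, n = 2 each), and the difference was -0.23 ± 0.17 (SE, limma adjusted p = 0.664). Without WT replicate 1 it was -0.02, and without WT replicate 2 it was -0.45. The 95% interval with all arrays was 0.632-fold to 1.15-fold. On WT replicate 1, Cish was at its highest while Socs2, on its brightest probe set, was at its lowest. That array was also the lowest on Socs2 1418507_s_at and 1438470_at, but the highest on 1442586_at and 1446085_at. Whether these 2 feedback transcripts followed each other across the pools thus depended on the Socs2 probe set.

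Igf1 encodes the circulating growth factor that the liver makes under STAT5 control, and Igfals the acid-labile subunit that holds it in a long-lived complex in blood. On its brightest probe set Igf1 read 11.78 and 11.77 in Baf60a LKO and 12.05 and 12.04 in WT. The pools of each group lay 0.01 apart and the groups did not overlap, with a difference of -0.27 ± 0.11 (SE, limma unadjusted p = 0.0551 and adjusted p = 0.500), or 0.829-fold with a 95% interval of 0.683-fold to 1.01-fold. Leaving out any 1 array kept the value between -0.28 and -0.27. The other 3 probe sets went both ways. They differed by 0.00 ± 0.12 for 1437401_at, 0.12 ± 0.13 for 1434413_at and -0.14 ± 0.13 for 1419519_at, and the mean over the 4 was -0.07. On 1419519_at Igf1 was again lower in Baf60a LKO without overlap, at 10.19 and 10.22 in Baf60a LKO and at 10.27 and 10.42 in WT. On 1434413_at the groups separated the other way by a narrow margin, at 11.510 and 11.552 in Baf60a LKO and at 11.313 and 11.5095 in WT. Igfals read 9.03 and 8.96 in Baf60a LKO and 9.22 and 9.05 in WT, without overlap. Its difference was -0.14 ± 0.12 (SE, limma adjusted p = 0.714), with an interval of 0.730-fold to 1.13-fold, and it was -0.06 without WT replicate 1 and -0.23 without WT replicate 2.

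**Figure D2:**
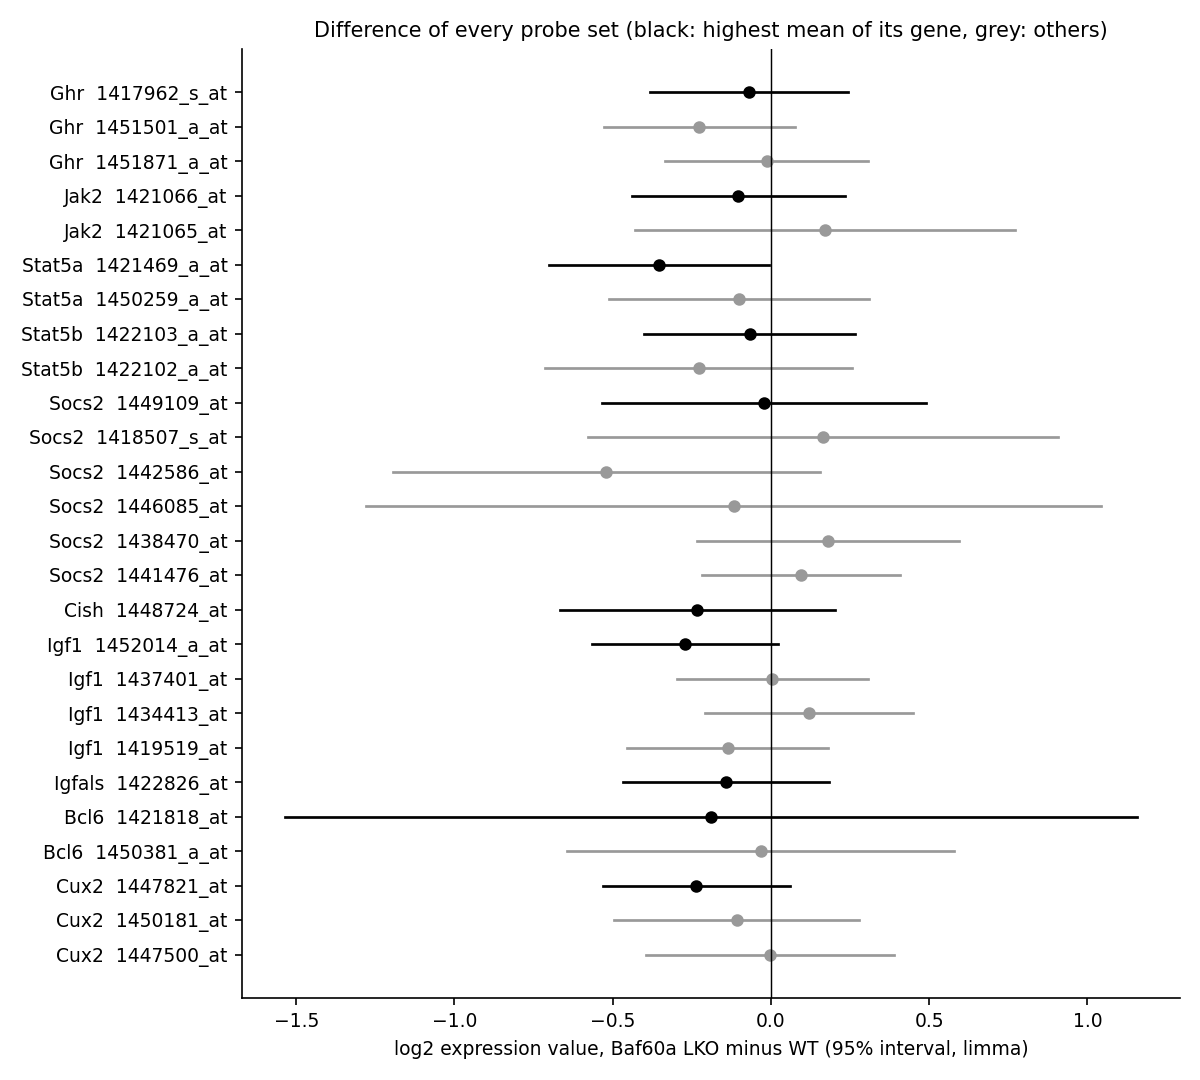
Log2 difference, Baf60a LKO minus WT (horizontal axis), of all 26 probe sets of the 10 genes as points with 95% intervals from limma. Black marks the probe set with the highest mean of its gene and grey the others. Of the 26 points 20 lie below 0, and the intervals of Bcl6 and of Socs2 1446085_at are the widest.

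Across all 26 probe sets, 20 differences lay below 0 and 6 above, where 51.6% of all probe sets lay below 0. None passed over all probe sets, of which 0.187% did (limma, lowest adjusted p 0.608), and 1 had an unadjusted p under 0.05, against 8.17% of all. The groups did not overlap in 8, where the share over all probe sets was 39.1%. Differences between probe sets of the same gene were often larger than the difference between genotypes, most plainly in Igf1 and Socs2.

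Bcl6 was the member whose pools disagreed most. It encodes a repressor whose expression growth hormone can lower through STAT5. Bcl6 read 7.05 and 6.00 in Baf60a LKO and 5.98 and 7.45 in WT. Each group held a high and a low pool, 1.05 apart in Baf60a LKO and 1.46 apart in WT. The means, 6.53 ± 0.74 in Baf60a LKO and 6.72 ± 1.03 in WT (SD, n = 2 each), differed by -0.19 ± 0.55 (SE, limma adjusted p = 0.924), and the 95% interval, 0.337-fold to 2.28-fold, allows changes of more than 2-fold in either direction. With 1 array left out the difference ran from -0.92 to 0.54.

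The second Bcl6 probe set had the same high and low pools at a smaller spread, at 5.30 and 4.86 in Baf60a LKO and at 4.82 and 5.401 in WT (-0.03 ± 0.25, limma adjusted p = 0.983 over all probe sets). The pooled standard deviation within groups was 0.90 for Bcl6, the 13th largest of 18193 genes, while the median was 0.11 over the 10 genes and 0.14 over all genes. Socs2 on its brightest probe set was high and low in the same pools as Bcl6. So was Stat5b, at 7.07 and 7.12 in the pools where Bcl6 was high and at 6.90 and 6.98 where it was low. Jak2 had the same order, at 7.44 and 7.57 where Bcl6 was high and at 7.31 and 7.39 where it was low. The second probe sets of Stat5b and Jak2 did not share this order. How many of all genes had it was not counted. These likenesses were seen in the values and carry no test.

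**Figure D3:**
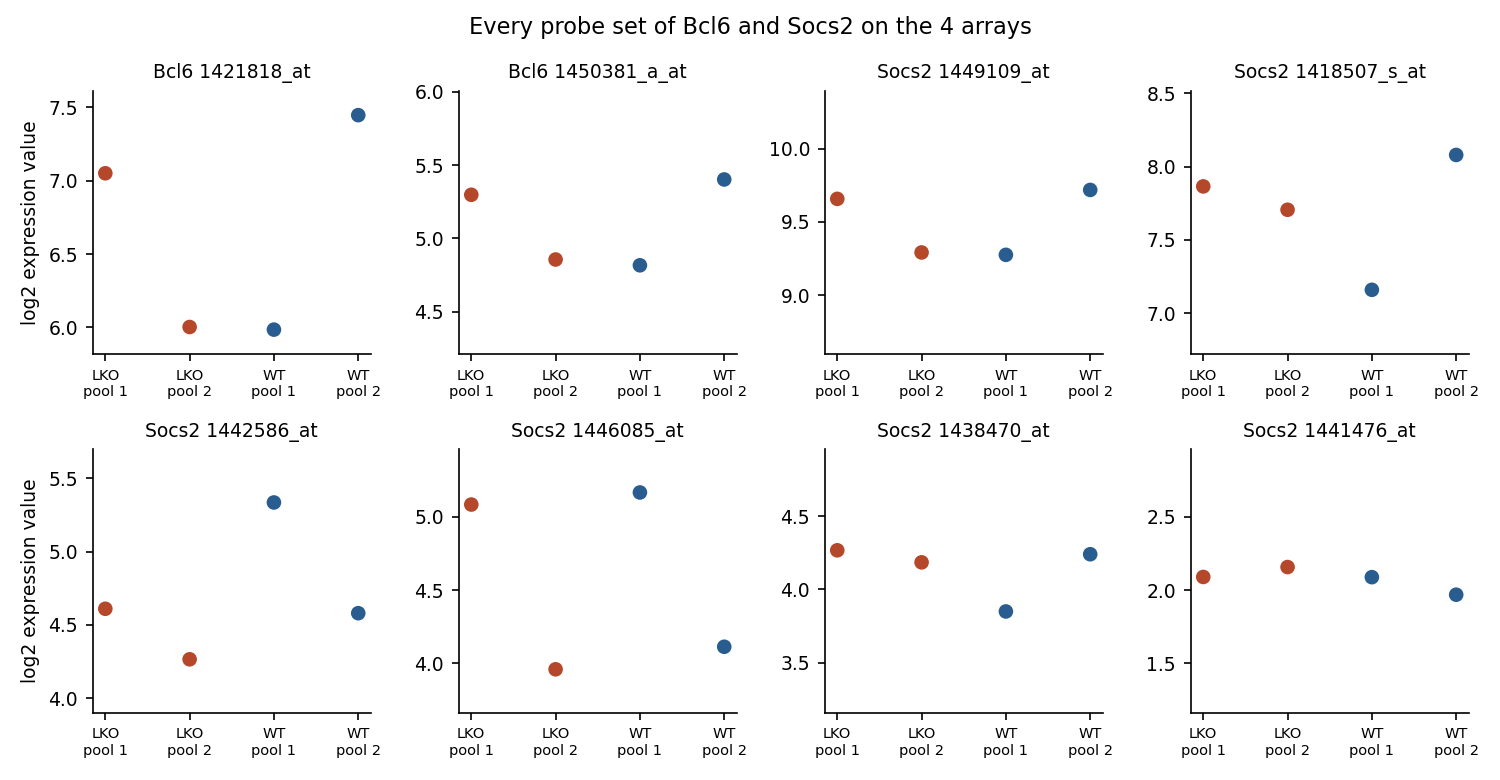
Log2 expression value (vertical axis, the same span in every panel) of the 2 probe sets of Bcl6 and the 6 of Socs2 on each array, with Baf60a LKO in orange on the left and WT in blue on the right. Baf60a LKO pool 1 and WT pool 2 are the high arrays for Bcl6 and for Socs2 on 1449109_at, while Socs2 on 1446085_at is high in pool 1 of both groups.

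BCL6 is also made by lymphocytes and macrophages. The summed level of 8 measured T and B cell markers (of 9 listed), on the linear scale, was 157 and 161 in Baf60a LKO and 176 and 168 in WT, with Cxcr5 between 2.65 and 3.004 on the log2 scale. That of 7 macrophage and Kupffer cell markers was 4106 and 3837 in Baf60a LKO and 3464 and 4109 in WT. The macrophage sum was thus higher in the same pool of each group as Bcl6, and the lymphocyte sum was not. The sums of endothelial and stellate cell markers had the same order as the macrophage sum, so it was not particular to macrophages. Among the macrophage markers, Cd68 and Vsig4 were higher in Baf60a LKO replicate 2, where Bcl6 was low. The part of these cells in the Bcl6 values was not tested.

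Cux2, the repressor that female liver expresses, was read by 3 probe sets. The brightest, 1447821_at, stood at 5.96 and 5.93 in Baf60a LKO and at 6.18 in both WT pools. The groups did not overlap, and the difference was -0.24 ± 0.11 (SE, limma unadjusted p = 0.0840 and adjusted p = 0.546), or 0.849-fold with a 95% interval of 0.699-fold to 1.03-fold. It kept between -0.25 and -0.22 with any 1 array left out, and was -0.12 with its probe sets averaged. The other Cux2 probe sets were dim, between 2.52 and 3.10 on all arrays, and differed by -0.11 ± 0.16 (1450181_at) and -0.003 ± 0.16 (1447500_at). Against the 95th percentile of the bacterial controls, 1450181_at lay above it on each array and 1447500_at on Baf60a LKO replicate 2 only. The intervals of all 3 Cux2 probe sets included 0.

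By likeness over the 4 arrays, each gene centred on its own mean, the 5 genes nearest to Stat5a, the member with the lowest difference, were Fer1l6, Pln, Morc2b, Slco5a1 and Rtn1, at root mean square distances of 0.005 to 0.013 on the log2 scale. All 5 were dim, between 2.20 and 4.76. On the brightest probe sets, no member was higher in Baf60a LKO. The member with the highest difference there was Socs2, to which Pcdhgc4, Pdlim4, Icam2, Dhx58 and Map3k20 lay nearest, at 0.027 to 0.035. With 4 arrays and 18193 genes many profiles lie this close.

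The rest of the growth hormone and JAK-STAT pathway was followed in 29 measured genes of 31 listed. None passed, and 17 lay above 0 and 12 below it, around a median difference of 0.03. Socs7, another member of the SOCS family, had the lowest p among them, at 7.74 and 7.76 in Baf60a LKO and at 6.997 and 7.34 in WT (0.58 ± 0.15 SE, limma adjusted p = 0.316, but 0.21 with its 4 probe sets averaged). Socs6 differed by 0.39 ± 0.13 (limma adjusted p = 0.424) and Socs1 by -0.38 ± 0.17 (0.517). The phosphatase gene Ptpn2 differed by 0.46 ± 0.24, and Stat3, which carries interleukin-6 signals, by 0.23 ± 0.12. The cytokine-induced inhibitor Socs3, set beside Socs2 and Cish, differed by -0.02 ± 0.14 with overlapping groups.

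Among binding proteins and receptors of the IGFs, all 15 listed genes were measured, none passed, and 12 lay below 0 and 3 above it (median -0.14). Igfbp2, a binding protein made by hepatocytes, read 10.92 and 10.71 in Baf60a LKO and 11.70 and 11.99 in WT, a difference of -1.03 ± 0.16 (SE, limma unadjusted p = 0.000798 and adjusted p = 0.104). Under 12 alternative settings, tried for it after its values were seen, Igfbp2 passed after cyclic loess (limma adjusted p = 0.0358) and with a trended and robust eBayes (0.00987), and the highest adjusted p was 0.864. Igfbp1, which fasting raises and insulin lowers, read 8.74 and 8.99 in Baf60a LKO and 9.67 and 10.36 in WT (-1.15 ± 0.25, limma adjusted p = 0.219). Both kept their sign with any 1 array left out, between -1.17 and -0.88 for Igfbp2 and between -1.49 and -0.81 for Igfbp1. These were larger than any difference among the 10 genes. Pappa, a protease of IGF binding proteins, Igfbp6 and Stc1 differed by -0.42 ± 0.13, -0.50 ± 0.18 and -0.40 ± 0.15 at dim levels. Igfbp3, the partner of Igfals in blood, differed by 0.26 ± 0.13 (limma adjusted p = 0.553).

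Of 13 measured partners and paralogs of BCL6 and CUX2, from 15 listed, none passed, and the differences of 8 lay above 0 and of 5 below it (median 0.03). Cux1, the paralog of Cux2, read 7.18 and 7.17 in Baf60a LKO and 6.72 and 6.90 in WT (0.36 ± 0.12 SE, limma adjusted p = 0.436, and 0.08 with its probe sets averaged). Zbtb7b, of the same zinc finger family as Bcl6, differed by 0.35 ± 0.13, and Bcl6b, the paralog of Bcl6, by -0.40 ± 0.16. The corepressor gene Hdac3, through which NCoR complexes act, differed by -0.02, and Hdac1 and Hdac2 by 0.00 and 0.03.

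Genes of sex-biased liver expression, many of them under pulsatile growth hormone and STAT5, are the pathway's best-known output. Of 20 measured genes of a male-biased list of 25, 6 fell, 1 rose and 13 did not pass, with a median of -0.66, where 0.247% of all genes fell and 0.236% rose. The 6 were Hsd3b5, Serpina12, Serpina4-ps1, Mup3, Cyp7b1 and Cyp4a12a, with log2 differences from -6.33 to -1.54, and the 1 that rose was the G protein gene Gna14 (1.45 ± 0.13 SE, limma adjusted p = 0.0211). Of 19 measured genes of a female-biased list of 27, which also holds Cux2, Vldlr rose (1.66 ± 0.18, limma adjusted p = 0.0387), none fell and 18 did not pass, with a median of 0.06. Among those 18, Cyp2b9, a cytochrome P450 gene, had the largest difference of the list, at 4.997 and 6.45 in Baf60a LKO and at 10.91 and 9.22 in WT (-4.34 ± 0.68, limma adjusted p = 0.113), and Tox differed by -0.99 ± 0.20 (0.201). Both lists were written from general knowledge with earlier results on these arrays in view, and they are no independent evidence. The arrays hold no measure of hormone pulses, receptor protein or STAT5 phosphorylation.

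**Figure D4:**
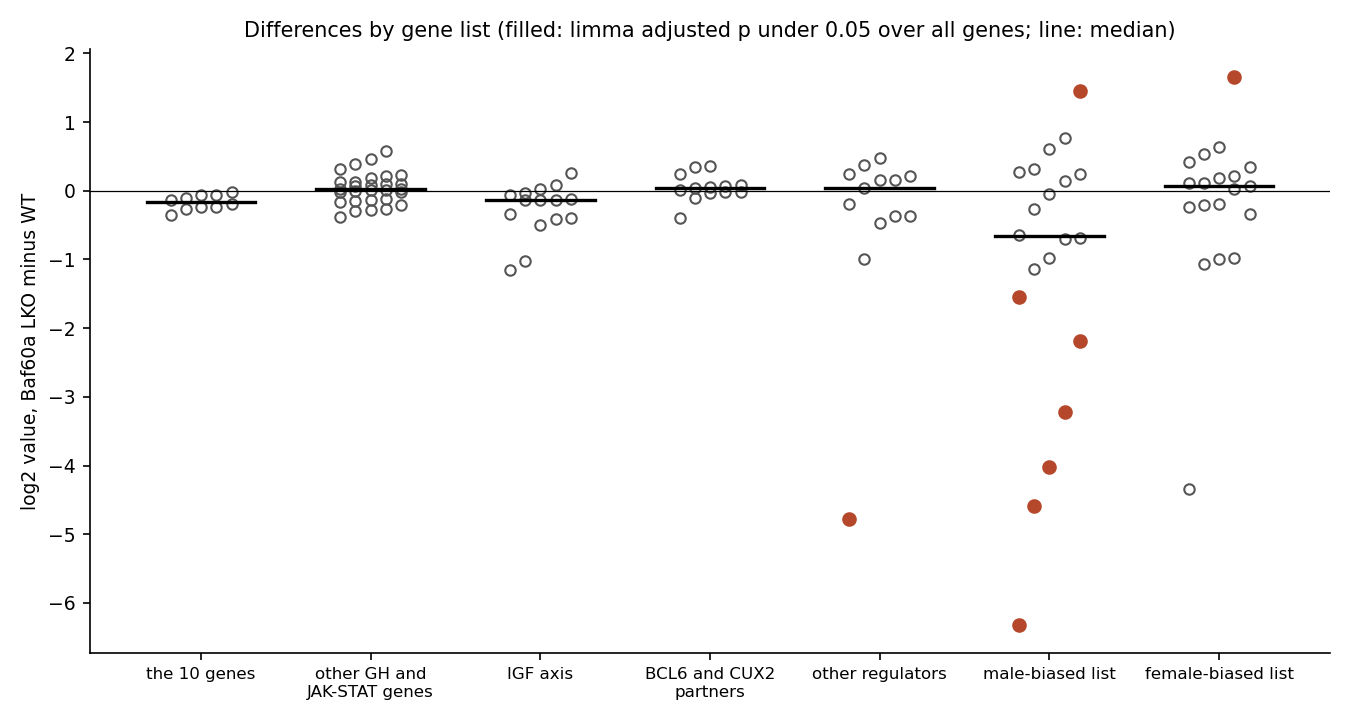
Log2 difference, Baf60a LKO minus WT (vertical axis), of each measured gene in the set of 10 and in 6 further lists, with filled points for genes past adjusted p under 0.05 by limma and a line at each median. The 10 genes lie between -0.35 and -0.02 with no filled point, and the male-biased list reaches -6.33.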

How the data were processed

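The authors deposited log2 expression values (the scale is read from their range), a single value for each probe set on each array. RMA, which corrects background, equalises arrays by quantiles and summarises probes, is named in the submitters' processing notes, as are the packages affy and limma; versions are not given. Differences of dim genes are understated by RMA. Detection calls were not used here. Array data carry no read depth, and the number of arrays limits the precision.

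Of 45101 probe sets, 64 controls were left out. The platform annotation gave 1 symbol to 34945, several to 932 (left unnamed) and listed none for 9160. Symbols were updated by Entrez number through RefSeq (GRCm38.p6), where 34741 matched. Each gene was represented by its probe set with the highest mean. Groups were taken from the labelled genotype and compared by linear models (limma 3.58.1, R 4.3.3; lmFit and eBayes), 2-sided, over all genes and separately over all probe sets, with 2 residual and 3.54 prior degrees of freedom in the fit over genes. The scripts were tested on simulated data. Figures used matplotlib 3.10.9 in Python 3.11.15.

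The members and lists were chosen with earlier results of these data known. Named genes are the 10 members, Smarcd1, up to 6 genes of each further list by lowest p, and the genes nearest in profile to 2 members. Hdac1, Hdac2, Hdac3, Socs3, Alb, Apoa1 and Cyp7b1 were named outside that rule, after their values were seen. Alternatives were other normalizations, a filter on dim genes, other probe set choices, another eBayes, a replicate block, another threshold and leaving out each array.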

Additional observations from a re-analysis of the deposited data

How the results depend on the processing

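None of the 10 genes and none of their probe sets (26, or 21 in the brighter 50%) had an adjusted p under 0.05 under any alternative run (limma). None passed at a threshold of 0.1 in the fit as reported, the one fit that threshold was tried on, while the lowest adjusted p of a member gene under an alternative was 0.0946, for Igf1 with a trended and robust eBayes. At an unadjusted p under 0.05 the alternatives gave 0 to 3 of the 10 genes and 0 to 7 of the 26 probe sets. Of 120 values of the 10 genes under alternatives, 112 kept their sign. Part of that count was fixed beforehand. The brighter 50% filter, the trended and robust eBayes and the replicate block leave each difference unchanged. Leaving out _x_at and _s_at probe sets changed only Ghr, and averaging cannot change Cish or Igfals, which have 1 probe set each. Jak2 turned to 0.034 with probe sets averaged and Socs2 to 0.010 with array medians subtracted. With 1 array left out, Stat5b ran from -0.15 to 0.017, Socs2 from -0.24 to 0.20 and Bcl6 from -0.92 to 0.54. The fit then takes the spread of the lone pool's group from the other. The count of all genes past the threshold, 88 (43 higher and 45 lower), was 142 after cyclic loess (72 and 70), 154 with array medians subtracted (91 and 63), 216 with a trended and robust eBayes (118 and 98) and 0 to 17 with 1 array left out, where fewer degrees of freedom remain. The 0 came on leaving out WT replicate 1 (limma, with 1630 genes at unadjusted p under 0.05), and leaving out WT replicate 2 gave 3. The labels share replicate numbers but do not tie pools across groups. The deviations of same-numbered pools correlated at 0.15 over probe sets. With a replicate block 19 genes passed (5 higher and 14 lower) and none of the 10.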

Other observations

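Of 13 measured further regulators of sex-biased or hepatocyte expression, from 16 listed, the nuclear receptor gene Nr1i3 fell (log2 difference -4.77 ± 0.14 SE, limma adjusted p = 0.000591), none rose and 12 did not pass, with a median of 0.03. Onecut1, which encodes HNF6, a factor that growth hormone regulates, read 8.91 and 8.62 in Baf60a LKO and 9.22 and 9.25 in WT (-0.47 ± 0.14, limma adjusted p = 0.377). Tox and Trim24, both reported as female-biased in mouse liver, lay on opposite sides of 0, at -0.99 ± 0.20 and 0.37 ± 0.12 (limma adjusted p = 0.201 and 0.410), and Cebpb and Foxa1 differed by -0.36 ± 0.12 and -0.37 ± 0.14. The groups did not overlap in 9 of the 13, against 42.4% of all genes.

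Among cell type markers, adipocyte genes summed on the linear scale to 4570 and 5184 in Baf60a LKO and to 11006 and 11906 in WT, nearly all of it from Car3, which hepatocytes also express and which fell (-1.24 ± 0.13, limma adjusted p = 0.0321), while Adipoq lay between 2.35 and 2.49 on the log2 scale. The differences of the 7 measured cholangiocyte markers all lay above 0, as did those of 9120 of all 18193 genes, and none passed the threshold. They ran from 0.01 for Cftr, dim at 1.90 to 2.29 with overlapping groups, to 1.34 for Pkhd1. The cholangiocyte sums were 192 and 262 in Baf60a LKO and 110 and 135 in WT. Markers of endothelial cells summed to 1946 and 1757 in Baf60a LKO and 1894 and 2028 in WT, and those of stellate cells to 4132 and 4005 in Baf60a LKO and 3921 and 4196 in WT, so both sets overlapped. The part of these cells in the values of the 10 genes was not tested.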
